A study of Homo sapiens with 6 samples.

Results

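The 10 genes described here encode proteins that fuse mitochondria (MFN1, MFN2 and OPA1), divide them (DNM1L, FIS1 and MFF) or mark them for removal by autophagy, called mitophagy (BNIP3, BNIP3L, PINK1 and FUNDC1). They were taken by symbol from a count table of 60649 genes, and all 10 were among the 16039 genes expressed enough to test. They were named by function, not by a cut on measured values, though earlier results of these data were known when they were chosen. The RNA came from 786-O, an established human cell line from a clear cell renal carcinoma. Its VHL gene is defective, and VHL protein is what marks HIF alpha subunits for destruction in other cells. Cells carried shRNA1 or shRNA2, hairpins of different sequence that target the lncRNA LINC02068, or the control hairpin shControl, and expression was read by RNA-seq. Each of the 3 groups had 2 libraries. The genotype labels are LINC02068 knockdown for both hairpins and WT for shControl, all cells were grown in RPMI-1640 with serum, and no further agent is named. The whole line derives from a single tumour. No label states whether libraries of a group were grown separately, so the p-values may reflect technical spread only.

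Mitochondria form a network that is remade by fusion and fission. The mitofusins MFN1 and MFN2 are GTPases that tether and fuse outer membranes, and OPA1 fuses inner membranes. DNM1L (the protein DRP1) is the dynamin that constricts a mitochondrion until it divides, and MFF and FIS1 are outer membrane proteins linked to its recruitment. BNIP3, its paralog BNIP3L (also called NIX) and FUNDC1 are outer membrane receptors that bind the LC3 and GABARAP proteins of the forming autophagosome, and they are known for mitophagy under low oxygen. PINK1 is the kinase that builds up on damaged mitochondria and phosphorylates ubiquitin there.

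Sequence before the annotated start is shown for 3 of these genes. BNIP3 is a textbook HIF target whose level is set against that of BNIP3L below, and MFN1 and FIS1 are shown because both hold the same short motif. Whether HIF acts on BNIP3 in these cells, and through which alpha subunit, was not tested. RefSeq windows on GRCh38.p14 were found for 8 of the 10 genes, and BNIP3L and PINK1 were not matched. The 250 bases before the start were searched on both strands for the HIF core (ACGTG or GCGTG), the ETS core (CCGGAAG), the NRF1 site (GCGC and TGCGC parted by 1 base of any kind) and the site bound by ATF4 with C/EBP partners (TGATGNAA). The windows are written 5′ to 3′ on the strand of the gene, with matches on either strand in capitals, to the HIF core for BNIP3 and to the ETS core for MFN1 and FIS1.
BNIP3, chr10:131981924-131982173, minus strand: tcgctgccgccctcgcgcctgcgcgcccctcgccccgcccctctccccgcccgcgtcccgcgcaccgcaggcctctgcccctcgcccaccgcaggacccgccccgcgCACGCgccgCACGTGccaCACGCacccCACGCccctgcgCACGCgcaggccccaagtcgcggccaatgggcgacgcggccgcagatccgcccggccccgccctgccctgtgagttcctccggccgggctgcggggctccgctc
MFN1, chr3:179347459-179347708, plus strand: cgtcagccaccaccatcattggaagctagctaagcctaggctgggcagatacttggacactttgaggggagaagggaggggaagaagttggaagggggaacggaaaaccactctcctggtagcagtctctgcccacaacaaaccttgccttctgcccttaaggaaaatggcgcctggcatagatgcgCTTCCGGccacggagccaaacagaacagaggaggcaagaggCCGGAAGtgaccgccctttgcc
FIS1, chr7:101245082-101245331, minus strand: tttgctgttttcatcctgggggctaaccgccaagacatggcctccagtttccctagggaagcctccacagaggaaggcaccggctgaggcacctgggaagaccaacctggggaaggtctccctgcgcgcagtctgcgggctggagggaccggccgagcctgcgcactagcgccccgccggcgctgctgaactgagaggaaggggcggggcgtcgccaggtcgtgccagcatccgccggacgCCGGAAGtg

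The BNIP3 window held 6 matches to the HIF core, of which a pair overlap as the palindrome CACGTG, and 43.2% of 35116 RefSeq windows of this length held at least 1. It also held 3 matches to the NRF1 site, and some of them overlap HIF cores, while 5.07% of windows held at least 1. How many windows held as many matches as BNIP3 was not counted, and binding was not tested. MFN1 had 2 matches to the ETS core and FIS1 had 1, against 8.52% of windows with any. OPA1 and FUNDC1 had 1 NRF1 site each, the windows of MFN2 and DNM1L held none of the 4 motifs, and no window of these genes held TGATGNAA (3.14% of all windows did). MFF has 3 RefSeq windows, which held 2, 1 and 0 HIF cores, and the OPA1 window held 1. In GENCODE 29 the FIS1 window lies wholly inside the annotated gene, which has a farther start, and the BNIP3 and MFN1 windows overlap their genes by 90 and 17 bases.

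Library totals lay between 15376448 counts (shRNA1 replicate 1) and 37311846 counts (shRNA2 replicate 1). A level of 1 CPM, the unit of counts relative to library size (here scaled by the trimmed mean of M values, TMM), thus stood for 14.9 to 36.0 counts. LINC02068, the targeted RNA, had 9 and 2 counts with shRNA1, 17 and 10 with shRNA2, and 20 and 32 in shControl. Its level was 0.105 to 0.605 CPM in the 4 knockdown libraries, against 1.07 and 1.14 CPM in shControl, without overlap but with the wide counting error of such low counts. Mitochondrially encoded genes took 2.57 to 2.71% of counts in knockdown libraries and 2.30 to 2.43% in shControl. The replicate 1 library of shRNA1 stood apart from the other libraries on the second principal component (15.1% of variance), and the edgeR tests of the 10 genes and of the gene lists, and the ratios between genes, were also computed without it. The renal carcinoma markers PAX8, PAX2, VIM, EPAS1, KRT8, KRT18, CA9 and CDH2 were all detected, with a summed level of 8766 to 8904 CPM in knockdown libraries and 7428 to 7455 CPM in shControl. VIM made up most of that sum, and single markers differed in direction. EPAS1, which encodes HIF-2 alpha, had 281 to 283 CPM in knockdown libraries and 542 and 559 CPM in shControl. KRT8, a keratin gene, had 1520 to 1604 CPM in knockdown libraries and 832 and 831 CPM in shControl. Of the 4 leukocyte markers PTPRC and CD3E had 0 counts, and the list summed to 37.8 to 44.1 CPM in knockdown libraries and 36.5 to 40.4 CPM in shControl, nearly all from CD68. CDH5 had 0 counts among 3 endothelial markers, which summed to under 1 CPM in each library. DCN had 0 counts among 3 fibroblast markers, which summed to 4.90 to 5.91 CPM in knockdown libraries and 8.49 to 8.53 CPM in shControl. The part of all these markers and of the mitochondrial share in the results was not tested.

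Of the 10 genes, 6 differed from shControl in the mean of both hairpins: BNIP3L fell, and MFN2, DNM1L, PINK1, FIS1 and MFN1 rose. The mitophagy receptor BNIP3L fell to 0.457 of its control level, while its paralog BNIP3 differed by a log2 fold change of -0.10 that was not called. Among the fusion genes MFN2 rose most, and OPA1 was not called. Calls are an adjusted p under 0.05 in edgeR's quasi-likelihood test over all tested genes, errors of fold changes are standard errors, and each hairpin was also set against shControl alone. In the same comparison 57.5% of all tested genes were called (9223 of 16039; 28.6% higher and 28.9% lower), so that 6 of 10 is close to the background. The median log2 fold change of the 10 genes was 0.17, and that of all tested genes -0.03. With library totals in place of TMM factors the median of all genes was -0.18. The 10 genes then split into 3 higher (MFN2, DNM1L and PINK1) and 2 lower (BNIP3L and BNIP3), and 36.0% of all called genes were higher. With a trend on exon length and GC content removed, 7 of the 10 genes were higher and 1 lower. That removal also subtracted the mean change of all genes, so each gene was re-centred as well as corrected for length and GC content. The median of all genes was then 0.06, and 57.7% of all called genes were higher. How much of a gene's shift came from each part was not tested. Small changes in the following paragraphs are therefore relative to the scaling and to that trend. RNA per cell was not measured, so which scaling is right was not tested. Each library pools the RNA of many cells, so fewer transcripts in each cell and fewer cells with the transcript cannot be told apart.

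**Figure D1:**
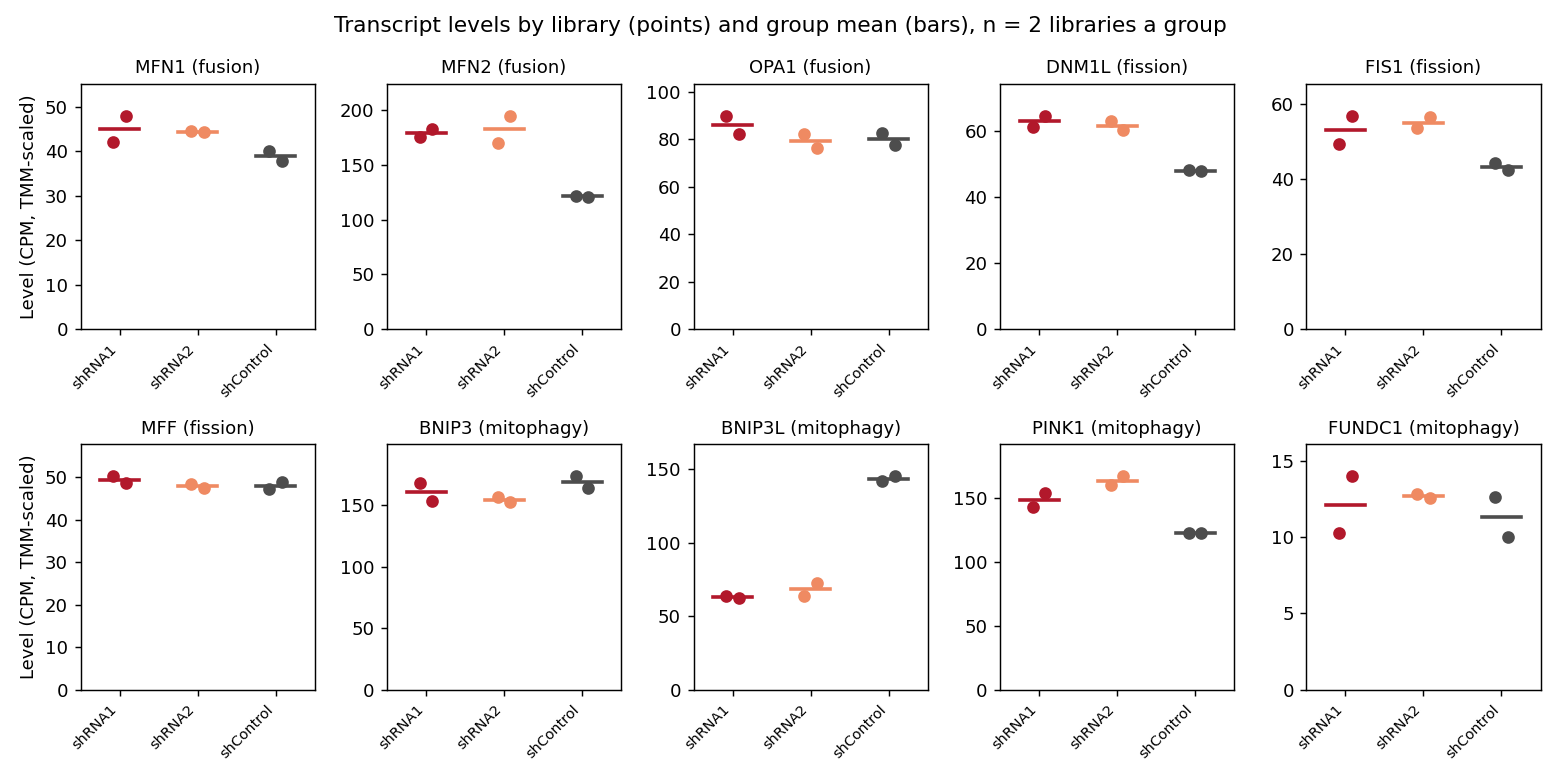
Level of each gene in CPM (vertical axes, from 0) in the libraries of shRNA1, shRNA2 and shControl (points), with the group mean as a bar, n = 2 libraries a group. BNIP3L lies at 62.6 to 72.5 CPM in the knockdown libraries, against 142 and 145 CPM in shControl, and MFN2 at 170 to 195 CPM, against 121 and 122 CPM.

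The mitofusins were higher by different amounts. MFN2 (chromosome 1, 11980181 to 12013514, GRCh38, plus strand) had 175 and 183 CPM with shRNA1 and 170 and 195 CPM with shRNA2, against 122 and 121 CPM in shControl. All 4 knockdown libraries lay above both control libraries, as in 32.7% of all tested genes, and a further 34.2% lay wholly below (67.0% in either direction). The levels of MFN1, DNM1L, FIS1 and PINK1 lay wholly above too, and those of BNIP3L wholly below. MFN2 averaged 181 ± 11 CPM in knockdown libraries (SD, n = 4) and 121 ± 0.70 CPM in shControl (SD, n = 2). This was a log2 fold change of 0.57 ± 0.05 (edgeR adjusted p = 4.0e-07), a 1.49-fold rise, and 38.9% of tested genes changed by more in either direction.

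MFN1 (chromosome 3, 179347692 to 179394931, plus strand), the other mitofusin, had 42.1 and 48.1 CPM with shRNA1 and 44.6 and 44.3 CPM with shRNA2, against 40.0 and 38.0 CPM in shControl. The ranges did not overlap, but the lowest knockdown library was only slightly above the highest control. Its log2 fold change was 0.20 ± 0.07 (edgeR adjusted p = 0.0246). The call was lost under total counts (0.05, adjusted p = 0.601), with no filter on low counts (0.18, 0.0572), and in the test against a fold of 1.2 (0.730). It was also lost without the replicate 1 library of shRNA2 (0.19, 0.0586) or shControl (0.23, 0.0580), and without the replicate 2 library of shRNA1 (0.17, 0.0551) or shControl (0.16, 0.205). Once a trend on exon length and GC content was removed it was larger and called (0.39, adjusted p = 2.1e-04).

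OPA1 (chromosome 3, 193593144 to 193697823, plus strand), the inner membrane fusion GTPase, did not pass the test. Its levels were 90.0 and 82.4 CPM with shRNA1 and 82.4 and 76.3 CPM with shRNA2, against 82.7 and 77.4 CPM in shControl, and the groups overlapped. Its log2 fold change was 0.05 ± 0.06 (95% interval -0.07 to 0.17, edgeR adjusted p = 0.499). It was -0.11 under total counts (not called), and 0.24 and called (adjusted p = 0.00213) with the same trend removed.

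Of the fission genes, the dynamin and 1 of its adaptors were higher. DNM1L (chromosome 12, 32679200 to 32745650, plus strand) had 61.2 and 64.6 CPM with shRNA1 and 63.0 and 60.2 CPM with shRNA2, against 48.2 and 47.8 CPM in shControl. The knockdown libraries lay close together and wholly above the controls. Its log2 fold change was 0.38 ± 0.06 (edgeR adjusted p = 5.0e-05), or 0.22 under total counts. YARS2, the mitochondrial tyrosyl-tRNA synthetase gene, overlaps DNM1L on the opposite strand with 0 shared exonic bases, and rose by 1.02 ± 0.10.

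FIS1 (chromosome 7, 101239458 to 101252316, minus strand) had 49.1 and 56.8 CPM with shRNA1 and 53.4 and 56.4 CPM with shRNA2, against 44.1 and 42.3 CPM in shControl. The ranges did not overlap, and shRNA1 replicate 1 was the lowest knockdown library. It rose by 0.32 ± 0.07 on the log2 scale (edgeR adjusted p = 0.00104), and the call was lost under total counts (0.17, adjusted p = 0.0535) and against a fold of 1.2 (0.159).

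MFF (chromosome 2, 227325151 to 227357836, plus strand), the main receptor for DNM1L, had 47.5 to 50.1 CPM in the knockdown libraries, against 47.0 and 48.7 CPM in shControl. Its groups overlapped, at a log2 fold change of 0.02 ± 0.06 (95% interval -0.11 to 0.15, edgeR adjusted p = 0.794). The value was -0.13 and not called under total counts (adjusted p = 0.0674), and 0.15 and called with the length and GC trend removed (0.0490).

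BNIP3L (chromosome 8) changed by more than the other 9 genes. It had 64.0 and 62.6 CPM with shRNA1 and 63.9 and 72.5 CPM with shRNA2, against 142 and 145 CPM in shControl. These levels rested on 952 to 4063 counts per library. The 4 knockdown libraries lay far below both controls, and shRNA2 replicate 2 was the highest of them. Its mean was 65.8 ± 4.5 CPM in knockdown libraries (SD, n = 4), against 143 ± 2.0 CPM in shControl (SD, n = 2). That is a log2 fold change of -1.13 ± 0.05 (edgeR adjusted p = 5.9e-11), and 12.6% of all tested genes changed by more. On leaving out each library in turn it lay between -1.18 and -1.09. It was -1.28 under total counts and -1.01 with the length and GC trend removed. PNMA2, a gene on the opposite strand that shares 330 exonic bases with BNIP3L, had 30.8 to 35.8 CPM in knockdown libraries and 46.9 and 46.4 CPM in shControl and fell too (-0.50 ± 0.07, edgeR adjusted p = 1.3e-05). The strand setting of the counts is not given in the sources used here, so reads in the shared bases cannot be told apart.

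BNIP3 (chromosome 10, 131966455 to 131982013, minus strand), the paralogous receptor, had 168 and 153 CPM with shRNA1 and 157 and 152 CPM with shRNA2, against 173 and 164 CPM in shControl. Most knockdown libraries were below both controls, but shRNA1 replicate 1 lay between them. A log2 fold change of -0.10 ± 0.04 missed the threshold (edgeR adjusted p = 0.0727). It was called lower under total counts (-0.25, edgeR adjusted p = 2.1e-04), with no filter (0.0498) and with a stricter filter (-0.12, 0.0235). It was not called by DESeq2 (-0.10, adjusted p = 0.0929), with RLE factors (-0.09, edgeR adjusted p = 0.0797) or with the length and GC trend removed (-0.06, 0.264). On leaving out each library in turn it lay between -0.14 and -0.05. GENCODE 29 names 39 pseudogenes of BNIP3. Of these 14 had counts, 264 in all, or 1.195% of the counts of BNIP3 itself.

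PINK1 (chromosome 1, 20633455 to 20651511, plus strand) had 143 and 154 CPM with shRNA1 and 160 and 167 CPM with shRNA2, against 123 and 123 CPM in shControl. All knockdown libraries were above the controls, and those of shRNA2 were the highest. It rose by 0.35 ± 0.04 on the log2 scale (edgeR adjusted p = 4.4e-06), or 0.19 under total counts. The antisense gene PINK1-AS shares 1907 exonic bases with PINK1 and rose alongside it, by 0.34 ± 0.10 (edgeR adjusted p = 0.00777). Its levels were 34.1 to 43.6 CPM in knockdown libraries and 29.8 and 34.3 CPM in shControl, which overlapped. Without a stated strand setting, reads of the sense and the antisense gene cannot be told apart, so the value of PINK1 is uncertain to that extent.

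FUNDC1 (chromosome X, 44523639 to 44543001, minus strand) was the least abundant of the 10 genes in CPM. It had 10.3 and 14.0 CPM with shRNA1 and 12.8 and 12.5 CPM with shRNA2, against 12.6 and 9.99 CPM in shControl, from 153 to 461 counts per library. The replicates of shRNA1, and those of shControl, differed from each other by more than the group means did. Its log2 fold change was 0.14 ± 0.14 (edgeR adjusted p = 0.420), and the 95% interval of -0.16 to 0.45 leaves room for a rise like that of PINK1 or DNM1L. With the length and GC trend removed it was 0.28 and not called (adjusted p = 0.109).

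Each hairpin was also set against the same control libraries. With shRNA1, 5 of the 10 genes were higher and 1 lower, while 26.8% of all tested genes were higher and 25.6% lower (52.4% called). With shRNA2, 4 were higher and 1 lower, while 26.7% of all tested genes were higher and 26.1% lower (52.8% called). BNIP3L was at -1.18 ± 0.06 with shRNA1 and -1.08 ± 0.06 with shRNA2, and MFN2 at 0.56 ± 0.06 and 0.59 ± 0.06. DNM1L was at 0.39 ± 0.07 with shRNA1 and 0.36 ± 0.07 with shRNA2, and FIS1 at 0.30 ± 0.08 and 0.35 ± 0.08. The FIS1 calls of both hairpins were lost under total counts (0.14, edgeR adjusted p = 0.148, with shRNA1 and 0.19, 0.0595, with shRNA2). They were also lost against a fold of 1.2 (edgeR adjusted p = 0.279 and 0.126). The FIS1 call of shRNA1 was lost too without shRNA1 replicate 2 (0.20) or shControl replicate 2 (0.26). MFN1 was called with shRNA1 (0.21 ± 0.08, edgeR adjusted p = 0.0416) and not with shRNA2 (0.19 ± 0.08, 0.0609), though the values differ by less than their errors. That call of shRNA1 was also lost by DESeq2 (0.0735) and on leaving out any library other than shRNA1 replicate 1.

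Set directly against shRNA2, shRNA1 gave no call among the 10 genes (0 of 10 by edgeR and 0 by DESeq2, with 1 at an unadjusted p under 0.05). Over all tested genes 0.0312% were called, 0.00623% as higher and 0.0249% as lower. PINK1 had the lowest unadjusted p, at -0.14 ± 0.05 (95% interval -0.24 to -0.04, edgeR adjusted p = 0.905). BNIP3L was at -0.10 (95% interval -0.24 to 0.03), and OPA1, the highest, at 0.12 (-0.02 to 0.26). A missed threshold does not show that the hairpins act alike, and these intervals bound how far they may differ.

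**Figure D2:**
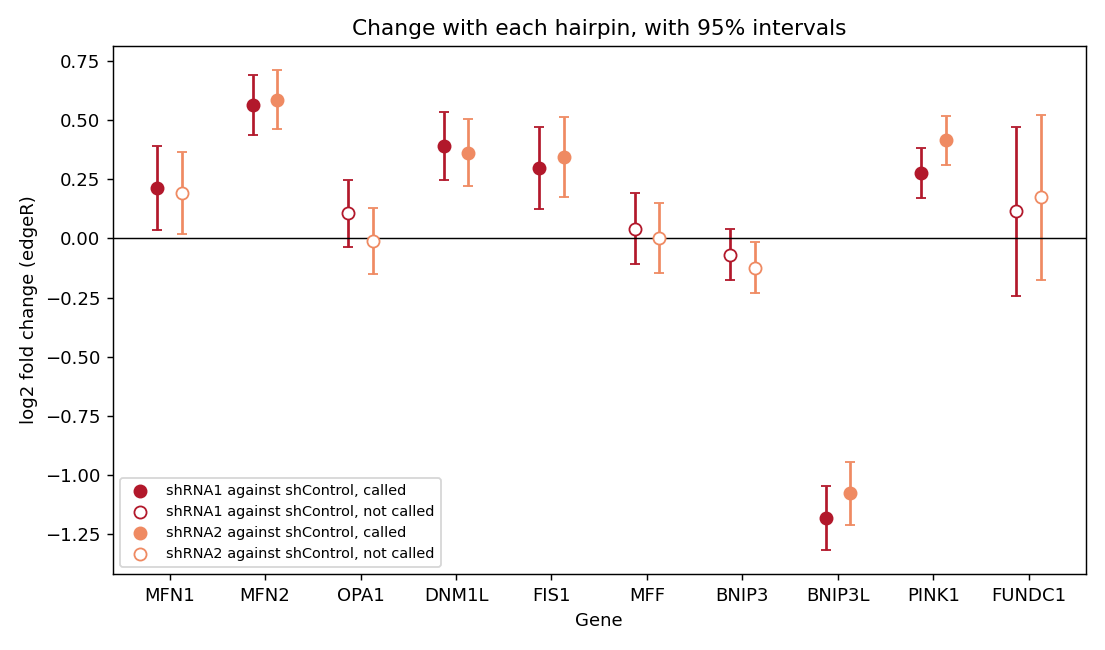
The log2 fold change (vertical axis) of each gene with shRNA1 and with shRNA2, each against shControl, with 95% intervals from the edgeR fit. Filled points were called and open points were not. BNIP3L is at -1.18 and -1.08, well below the other genes, and MFN2 is highest at 0.56 and 0.59.

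Per kilobase of exon, the order of the genes differed between the groups. Levels between genes are compared here as RPKM, which is CPM divided by the merged exon length in GENCODE 29, so unused exons lower a value. In the knockdown libraries MFN2 ranked first at 36.4 ± 2.2 RPKM, followed by PINK1 at 32.3 ± 2.1, FIS1 at 30.0 ± 2.0 and BNIP3 at 29.6 ± 1.4 (SD, n = 4). Neighbours among these first 4 overlapped between libraries. BNIP3L followed at 15.3 ± 1.1 RPKM, apart from its neighbours on both sides. In shControl BNIP3L ranked first, at 33.3 ± 0.47 RPKM, followed by BNIP3 at 31.7 ± 1.3, PINK1 at 25.4 ± 0.08, MFN2 at 24.4 ± 0.14 and FIS1 at 24.1 ± 0.74 (SD, n = 2). There only MFN2 and FIS1 overlapped among the first 5.

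The other 5 genes formed a lower tier in both groups. In knockdown libraries they ran from OPA1 at 9.14 ± 0.62 RPKM through FUNDC1, DNM1L and MFF to MFN1 at 7.52 ± 0.41 (SD, n = 4). In shControl they ran from OPA1 at 8.84 ± 0.41 through FUNDC1, MFF and DNM1L to MFN1 at 6.54 ± 0.25 (SD, n = 2). Among neighbours there only DNM1L and MFF were apart from each other, in both groups, with DNM1L above MFF in knockdown libraries and below it in shControl. OPA1 overlapped FUNDC1 in both groups.

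Ratios of 2 genes within a library do not depend on how libraries are scaled, and 4 pairs were taken. The number of BNIP3L counts per BNIP3 count was 0.380 and 0.409 with shRNA1 and 0.408 and 0.476 with shRNA2, against 0.820 and 0.885 in shControl. The mean log2 ratio was -1.26 ± 0.14 in knockdown libraries (SD, n = 4) and -0.23 ± 0.08 in shControl (SD, n = 2), a difference of -1.03. MFN1 counts per MFN2 count were 0.227 to 0.262 in the knockdown libraries, against 0.314 and 0.328 in shControl, a log2 difference of -0.37.

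OPA1 counts per DNM1L count were 1.27 to 1.47 in knockdown libraries and 1.62 and 1.71 in shControl, a log2 difference of -0.33. FIS1 counts per MFF count were 0.980 to 1.19 in knockdown libraries and 0.867 and 0.938 in shControl, a log2 difference of 0.30. In each pair the knockdown libraries did not overlap the controls, and most of the genes in these pairs did not overlap on their own, as was so for 67.0% of all tested genes. Each pair held a gene called on its own, so the ratios are not separate evidence. The share over all pairs of genes was not computed. The exact two-sided permutation p was 0.0667 for each pair (0.0667 after Benjamini-Hochberg adjustment over the 4 pairs), the smallest that 4 libraries against 2 can give, so none can pass 0.05.

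**Figure D3:**
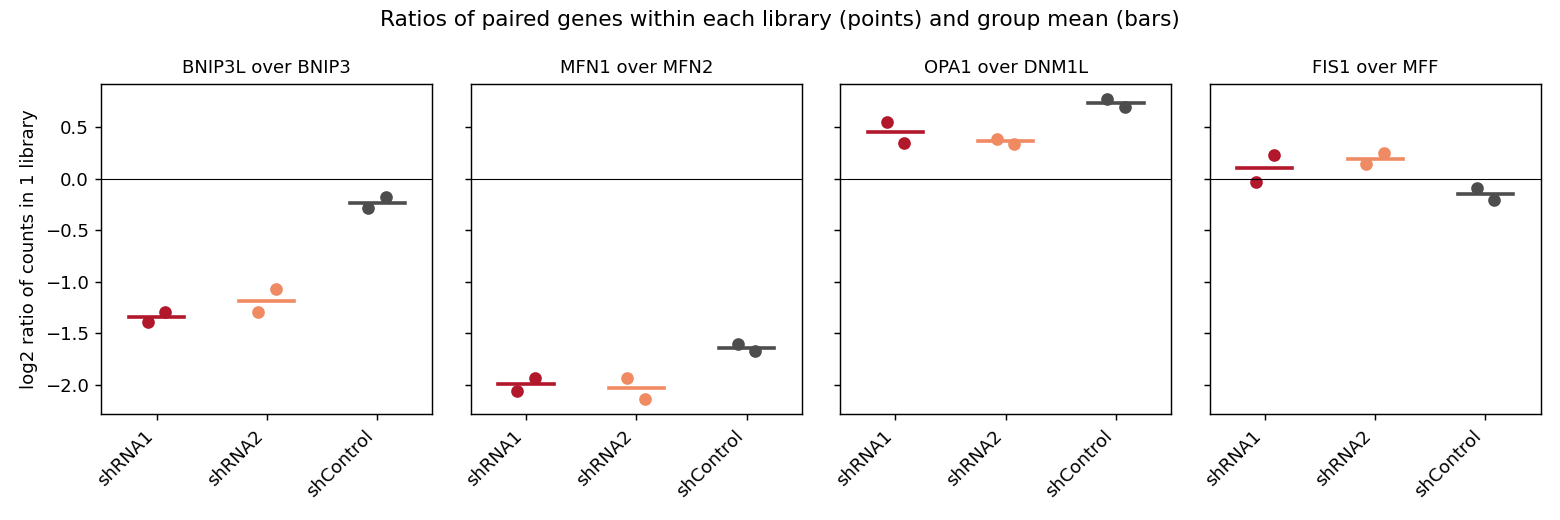
The log2 ratio of the counts of 2 genes in the same library (vertical axis, shared), by group, with libraries as points and group means as bars. BNIP3L over BNIP3 lies at -1.39 to -1.07 in knockdown libraries and at -0.29 and -0.18 in shControl. The other 3 ratios separate the groups by less.

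The genes whose profile over the 6 libraries was most like that of a changed gene were found among 9504 genes with a mean of at least 10 CPM. Likeness was the root mean square difference of log2 CPM after centring each gene, and it mainly reflects a like fold change. For BNIP3L these were CCNG2, which encodes cyclin G2 (difference 0.021, log2 fold change -1.13), and TNFRSF10B, which encodes a TRAIL receptor (0.030, -1.12). For MFN2 they were POLR2J, an RNA polymerase II subunit gene (0.020, 0.57), and TRAF3IP1 (0.025, 0.59). For DNM1L they were ELOVL5, a fatty acid elongase gene (0.011, 0.39), and SFT2D2 (0.019, 0.37). PINK1 was nearest ARMH3 (0.021) and POM121C (0.022), FIS1 nearest ST3GAL5 (0.027) and KIF18B (0.031), and MFN1 nearest ATG7 (0.027), which encodes the enzyme that activates ATG8 proteins, and RFTN1 (0.028).

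Other genes of these pathways moved both ways. Of 56 genes in 6 lists, 55 were tested, and in the mean of both hairpins 17 were higher, 18 lower and 20 not called. That is 63.6% called, against 57.5% of all tested genes, with a median log2 fold change of -0.04, against -0.03 for all tested genes. The splits of the lists below shift with the setting, as does that of all called genes. Of all called genes 57.7% were higher with the length and GC trend removed, and 36.0% under total counts.

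In the list of fusion and inner membrane processing genes, 4 of 11 were higher and 2 lower (median -0.05). SPG7, which encodes the m-AAA protease subunit paraplegin, had 122 and 128 CPM with shRNA1 and 128 and 119 CPM with shRNA2, against 70.7 and 71.9 CPM in shControl (0.80 ± 0.05, edgeR adjusted p = 1.2e-09). The mitoguardins, outer membrane proteins that promote fusion, moved in opposite directions. MIGA2 had 29.3 to 36.5 CPM in knockdown libraries and 15.7 and 17.5 CPM in shControl (0.97 ± 0.09, edgeR adjusted p = 1.4e-07). MIGA1 had 15.7 to 23.9 CPM in knockdown libraries and 39.3 and 35.0 CPM in shControl (-1.02 ± 0.11, edgeR adjusted p = 3.9e-06). Under total counts this list had 3 higher and 5 lower, and with the length and GC trend removed 6 higher and 2 lower.

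Among fission adaptors and partners, 5 of 14 were higher and 2 lower (median 0.09), or 4 higher and 6 lower under total counts, and 8 higher and 2 lower with the length and GC trend removed. INF2, a formin that builds actin at the contact of endoplasmic reticulum and mitochondria, had 273 to 296 CPM in knockdown libraries and 205 and 198 CPM in shControl (0.50 ± 0.04, edgeR adjusted p = 1.9e-08). SPIRE1, an actin nucleator that works with INF2, fell to 35.9 to 38.4 CPM in knockdown libraries, against 79.1 and 76.9 CPM in shControl (-1.06 ± 0.06, edgeR adjusted p = 4.4e-10). MUL1, an outer membrane ubiquitin ligase, had 77.2 to 85.2 CPM in knockdown libraries and 46.9 and 51.9 CPM in shControl (0.70 ± 0.06, edgeR adjusted p = 1.2e-07).

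Of the 8 genes around mitophagy receptors, 3 were higher and 4 lower (median -0.33), or 3 higher and 5 lower under total counts, and 4 higher and 4 lower with the length and GC trend removed. ULK1, the kinase that starts autophagy and phosphorylates FUNDC1, had 60.2 to 71.2 CPM in knockdown libraries and 129 and 127 CPM in shControl (-0.94 ± 0.06, edgeR adjusted p = 9.5e-10). PPTC7, a mitochondrial phosphatase known to limit BNIP3 and BNIP3L protein, had 15.5 to 18.1 CPM in knockdown libraries and 30.6 and 28.9 CPM in shControl (-0.86 ± 0.09, edgeR adjusted p = 8.2e-07). FUNDC2, the paralog of FUNDC1, had 51.4 to 59.0 CPM in knockdown libraries and 32.1 and 29.4 CPM in shControl (0.87 ± 0.07, edgeR adjusted p = 3.7e-08).

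In the list of the PINK1 pathway 2 of 12 genes were higher and 6 lower (median -0.16), or 1 higher and 8 lower under total counts, and 4 higher and 2 lower with the length and GC trend removed. The autophagy adaptor genes differed in direction. TAX1BP1 had 183 to 195 CPM in knockdown libraries and 247 and 248 CPM in shControl (-0.39 ± 0.04, edgeR adjusted p = 1.4e-07), and CALCOCO2, which encodes NDP52, fell by 0.43 ± 0.07 on the log2 scale (4.4e-05). SQSTM1, which encodes p62, had 521 to 553 CPM in knockdown libraries and 447 and 449 CPM in shControl (0.25 ± 0.03, edgeR adjusted p = 2.2e-06), a call lost against a fold of 1.2 (0.528).

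The ATG8 family holds the LC3 and GABARAP proteins that mitophagy receptors bind. Of its 6 tested genes 1 was higher and 2 lower (median -0.14), or 1 higher and 3 lower under total counts, and MAP1LC3A had too few counts to test. MAP1LC3B had 73.4 to 76.5 CPM in knockdown libraries and 129 and 131 CPM in shControl (-0.80 ± 0.04, edgeR adjusted p = 3.8e-10). GABARAPL1 had 57.4 to 61.9 CPM in knockdown libraries and 116 and 114 CPM in shControl (-0.95 ± 0.05, edgeR adjusted p = 3.0e-10). GABARAP, by contrast, had 184 to 195 CPM in knockdown libraries and 134 and 137 CPM in shControl (0.47 ± 0.04, edgeR adjusted p = 4.1e-08).

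Mitochondrial transport genes, which tie the organelle to microtubule motors, split into 2 higher and 2 lower of 4 (median -0.14). The adaptor gene TRAK1 fell by 0.62 ± 0.08 on the log2 scale (edgeR adjusted p = 1.8e-05), while its relative TRAK2 rose by 0.43 ± 0.06 (edgeR adjusted p = 2.4e-05). RHOT1, which encodes the anchor GTPase MIRO1, had 22.8 to 24.9 CPM in knockdown libraries and 35.4 and 34.2 CPM in shControl (-0.55 ± 0.08, edgeR adjusted p = 2.1e-05).

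**Figure D4:**
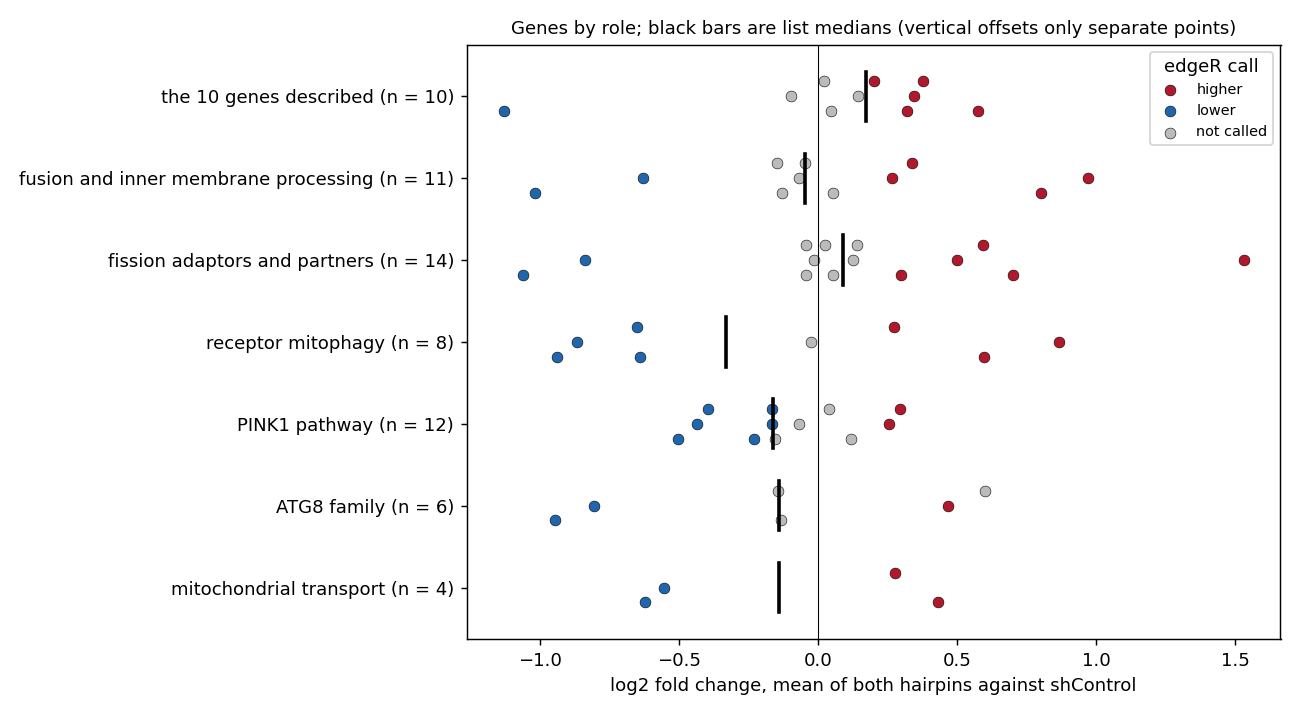
The log2 fold change for the mean of both hairpins against shControl (horizontal axis) of the 10 genes and of the tested genes in 6 lists, coloured by edgeR call, with list medians as black bars. In each list there are higher and lower genes, and the list medians lie between -0.33 and 0.09.

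**Figure D5:**
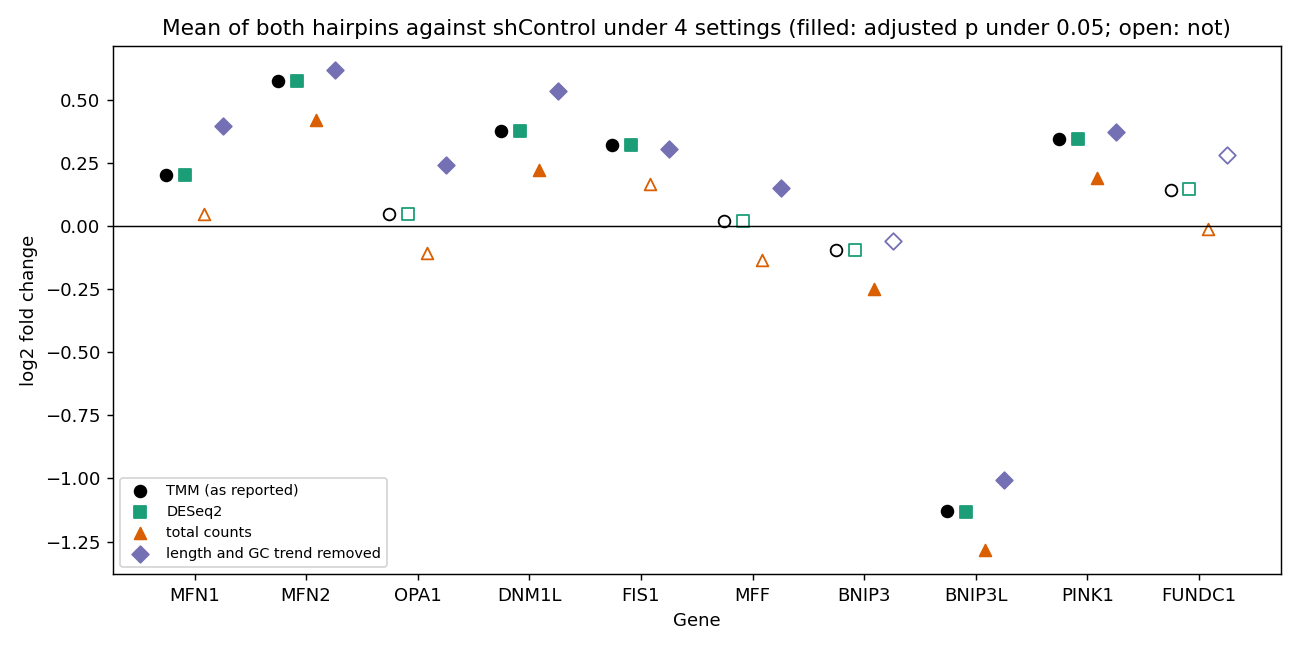
The log2 fold change (vertical axis) of each of the 10 genes for the mean of both hairpins against shControl under 4 settings (TMM as reported, DESeq2, total counts, and the length and GC trend removed), with filled marks for an adjusted p under 0.05. BNIP3L, MFN2, DNM1L and PINK1 are filled in all 4 settings, while every gene is lowest under total counts, which leave MFN1 and FIS1 open.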

How the data were processed

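The authors deposited a table of raw read counts by gene for the 6 libraries. Per the submitters' processing notes, FastQC 0.11.9, Trim Galore 0.6.7, HISAT2 2.2.1 and StringTie 2.2.1 were used with hg38. The sources used here do not state the counting tool, annotation release, strand setting or treatment of multiply mapped reads. Sense and antisense reads may therefore be mixed.

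Genes passed edgeR's filterByExpr by group. After TMM scaling, all 6 libraries entered 1 fit of group means, a robust quasi-likelihood model (edgeR 4.0.16, limma 3.58.1, R 4.3.3). P-values were adjusted by Benjamini-Hochberg over 16039 genes, and 95% intervals use the fit's degrees of freedom. The code was tested on simulated data. Exon length, transcript GC content and gene positions come from GENCODE 29 on GRCh38, matched by gene ID. Lists were matched by symbol.

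The members, lists and tests were chosen with earlier results of these data known. Named genes are the 10 members, LINC02068, the 3 genes with the smallest p in each list, and for each changed member the 2 most similar profiles. YARS2, PNMA2 and PINK1-AS were named because they overlap members. A gene of the PINK1 pathway list is not reported here and was left out of its counts.

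Alternatives were DESeq2 1.42.0, RLE factors, total counts, no filter, a stricter filter (mean of 1 CPM, and 10 counts in 2 libraries), a test against a fold of 1.2, a replicate block, a fit of only the groups compared, removal of a smooth trend on length and GC content (mgcv 1.9.3; 15902 genes, 99.1%), and each library left out. The fitted trend held the mean change of all genes, which was removed with it.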

Additional observations from a re-analysis of the deposited data

How the results depend on the processing

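BNIP3L, MFN2, DNM1L and PINK1 kept their direction and call for the mean of both hairpins under each alternative run. The number of the 10 genes called was 6, and 4 to 8 under the alternatives (5 to 7 with a library left out). In a test against a fold of 1.2 it was 3 for shRNA1 (6 as reported) and 3 for shRNA2 (5 as reported), and for the PINK1 pathway list 2 (8 as reported), because that test asks for larger changes. PINK1 with shRNA1 (adjusted p = 0.330) and DNM1L with shRNA2 (0.0636) then missed the threshold. Values that were not called changed sign. Under total counts OPA1 was -0.11, MFF -0.13 and FUNDC1 -0.013, where the median of all genes was -0.18, against -0.03 with TMM. MFF was -0.00030 under the stricter filter, and the cause was not tested. With a library left out, MFF ranged from -0.012 to 0.049, OPA1 from -0.0054 to 0.10, FUNDC1 from -0.027 to 0.31, and BNIP3 with shRNA1 from -0.12 to 0.014. Where this leaves 1 library in a group, it is assumed to vary like the others.

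Deviations of same-numbered replicates were nearly uncorrelated over all tested genes (-0.029 to 0.011). Counting noise of weakly expressed genes enters these values, so they cannot exclude pairing, and the replicate block was run as an alternative. With it the mean of both hairpins gave 7 calls, each hairpin 6 and the hairpin difference 0, and BNIP3 passed the threshold (-0.10, edgeR adjusted p = 0.0351). The block was not fitted to the within-library ratios. The alternative of only the groups compared is the reported fit for the mean of both hairpins, which uses all 3 groups. The ratios kept their direction with 10 counts added, for each hairpin alone and with each library left out (BNIP3L over BNIP3 -1.10 to -0.98). Precision is limited most for FUNDC1, which had the fewest counts of the 10 genes.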

Other observations

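Further genes of the 6 lists, named after their values were seen, had large changes in the mean of both hairpins against shControl. No rule on the size of change fixed the choice. NLRX1 (-0.65 ± 0.08, edgeR adjusted p = 3.7e-06) and PLD6 (-0.63 ± 0.20, 0.0146), not described further, changed by more than PGAM5 and TMEM11 below. GDAP1, an outer membrane protein gene tied to fission and to inherited neuropathy, had 9.003 and 8.31 CPM with shRNA1 and 6.92 and 5.12 CPM with shRNA2, against 2.31 and 2.68 CPM in shControl. Its log2 fold change was 1.53 ± 0.21 (edgeR adjusted p = 1.1e-05), the highest of the 55 list genes tested. MTFR2, a fission regulator gene, had 5.33 to 7.34 CPM in knockdown libraries and 11.0 and 11.4 CPM in shControl (-0.84 ± 0.14, edgeR adjusted p = 1.1e-04). PGAM5, a mitochondrial phosphatase that acts on FUNDC1, had 74.3 to 80.1 CPM in knockdown libraries and 51.0 and 51.7 CPM in shControl (0.59 ± 0.05, edgeR adjusted p = 1.7e-07).

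FBXL4, the F-box protein gene whose ubiquitin ligase removes BNIP3 and BNIP3L protein, had 24.6 to 26.0 CPM in knockdown libraries and 40.0 and 39.1 CPM in shControl (-0.64 ± 0.07, edgeR adjusted p = 2.1e-06). PPTC7, described above, acts on the same receptors, and its RNA fell as well. Protein of the receptors and mitophagy itself were not measured here. TMEM11 encodes a mitochondrial membrane protein known to restrain mitophagy by BNIP3 and BNIP3L. It had 36.4 to 38.8 CPM in knockdown libraries and 25.7 and 24.0 CPM in shControl (0.60 ± 0.08, edgeR adjusted p = 6.4e-06). For GDAP1, MTFR2, PGAM5, FBXL4 and TMEM11 direction and call held under each alternative run.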
